A study of Mus musculus with 6 samples.

Results

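The metabotropic glutamate receptors described here are 6 mouse genes, Grm2, Grm3, Grm4, Grm5, Grm7 and Grm8, chosen by name from the 31245 genes of the table. All 6 passed the filter of a mean normalized count of at least 10, which 16653 genes passed. Messenger RNA had been sequenced from 6 primary cortical neuronal cultures made from mouse pups on postnatal day 1, which had grown in vitro for 12 to 13 days. The 3 NGPF2 cultures received the agent that the labels call NGPF2 at 1.5 ng/ml for 2 h, and the 3 vehicle cultures received PBS for the same time. The strain, the sex and the number of pups behind a culture are not given in the labels. By the series' own statement the groups form 3 pairs, each from an experiment of its own, and cultures with the same replicate number are taken as a pair. Levels are given as normalized counts (counts after division by a size factor for each library), and a log2 difference is taken after adding 1 to them.

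Metabotropic glutamate receptors are class C G protein-coupled receptors with a large extracellular domain that binds glutamate, and they work as dimers. They fall into groups by sequence and coupling. Group I, to which Grm5 belongs, couples through Gq to phospholipase C and calcium release and lies mainly on the postsynaptic side, where Homer scaffolds hold it near the postsynaptic density. Group II (Grm2 and Grm3) and group III (Grm4, Grm7 and Grm8) couple through Gi and Go to lower cyclic AMP, and many of them act on axon terminals to restrain transmitter release. In the cortex Grm3 is also expressed by astrocytes, and Grm5 by young astrocytes as well as neurons.

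The total count ran from 17478070 to 45193691 per library. In their library names, replicates 2 and 3 share a stem that replicate 1 lacks in both groups, so every comparison is given over the 3 pairs and by these library sets. Markers of neurons were present in each library. Rbfox3, a nuclear protein of mature neurons, ranged from 2939 to 10769 normalized counts in NGPF2 cultures and from 2551 to 6979 in vehicle cultures. Gfap, the intermediate filament of astrocytes, was present too, at 3029, 312 and 267 in NGPF2 1, 2 and 3, against 2914, 9219 and 9265 in vehicle 1, 2 and 3. The cultures labelled neuronal therefore also held astrocyte transcripts.

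Grm2 (ENSMUSG00000023192) lies on chromosome 9, from 106643095 to 106656082 on the minus strand of mm10. Grm3 (ENSMUSG00000003974) lies on chromosome 5, 9485541 to 9725170, minus strand, and Grm4 (ENSMUSG00000063239) on chromosome 17, 27422387 to 27521403, minus strand. Grm5 (ENSMUSG00000049583) lies on chromosome 7, 87584168 to 88134907, plus strand. Grm7 (ENSMUSG00000056755) and Grm8 (ENSMUSG00000024211) both lie on chromosome 6, at 110645581 to 111567230 on the plus strand and at 27275119 to 28135178 on the minus strand. The genes span from 13.0 kb for Grm2 to 922 kb for Grm7. All 6 are protein-coding in GENCODE M21. Because the strand setting of the counting is not given, reads from an antisense gene could not be told apart where exons overlap. The antisense gene Gm28111 shares 470 exon bases (9.60%) with Grm2, and Gm20387, at 34.8 to 61 normalized counts, shares 130 bases (2.21%) with Grm7.

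The sequence before the start of transcription is shown for the 4 genes that the RefSeq promoter table (build GRCm38.p6) holds. These include Grm3 and Grm8, which were lower in NGPF2 2 and 3 than in vehicle 2 and 3, and Grm2 and Grm7, which differed in opposite directions between the library sets. Each is the stretch before the most upstream start in the table, up to 250 bases, read 5′ to 3′ on the strand of the gene. For Grm8, 32 bases that fall in an annotated exon were left out. Capitals mark the GC box GGGCGG or its reverse complement.
Grm2, chr9:106656110-106656359, minus strand: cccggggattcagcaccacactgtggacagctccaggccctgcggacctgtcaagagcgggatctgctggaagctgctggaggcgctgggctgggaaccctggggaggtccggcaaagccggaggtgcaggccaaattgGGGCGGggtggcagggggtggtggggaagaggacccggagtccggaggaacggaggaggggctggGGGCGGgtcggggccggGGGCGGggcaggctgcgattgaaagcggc
Grm3, chr5:9725353-9725602, minus strand: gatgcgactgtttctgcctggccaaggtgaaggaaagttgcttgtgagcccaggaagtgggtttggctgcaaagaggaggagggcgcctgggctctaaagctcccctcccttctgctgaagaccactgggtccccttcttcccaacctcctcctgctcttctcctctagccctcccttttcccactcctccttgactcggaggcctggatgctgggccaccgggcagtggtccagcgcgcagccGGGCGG
Grm7, chr6:110645262-110645511, plus strand: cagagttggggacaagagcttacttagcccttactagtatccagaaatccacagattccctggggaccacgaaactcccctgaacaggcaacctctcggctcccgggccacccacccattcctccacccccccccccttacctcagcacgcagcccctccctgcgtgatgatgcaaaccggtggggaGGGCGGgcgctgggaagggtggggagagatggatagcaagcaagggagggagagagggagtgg
Grm8, chr6:28135179-28135396, minus strand: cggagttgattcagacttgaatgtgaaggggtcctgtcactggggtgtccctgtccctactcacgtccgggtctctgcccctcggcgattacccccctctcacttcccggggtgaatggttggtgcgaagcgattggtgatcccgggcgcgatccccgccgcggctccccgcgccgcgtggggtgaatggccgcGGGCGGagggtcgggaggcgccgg

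Both strands were searched for 4 motifs, the GC box GGGCGG, the cyclic AMP response element TGACGTCA, the AP-1 site TGACTCA and the TATA box TATAAA. The GC box occurred 3 times before Grm2 and 1 time before each of Grm3, Grm7 and Grm8, and 32.7% of all 32851 promoter windows of 250 bases in the table held it. The other 3 motifs had no match in these 4 windows. They occur in 1.55%, 4.46% and 12.4% of all windows in the order named, and a missing match says only that these letters are not in the stretch shown. GC content was 71.2% for Grm2, 62.4% for Grm3, 62.0% for Grm7 and 68.3% for Grm8, where the median of all windows was 52.4%.

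Per kilobase of exon, Grm5 and Grm7 were the most abundant of the 6 receptor transcripts in the 4 libraries of replicates 2 and 3, and Grm5 alone led in replicate 1. The level of Grm5 was 558 ± 159 normalized counts per kilobase in NGPF2 cultures and 563 ± 128 in vehicle cultures (SD, n = 3 each). Grm7 stood at 414 ± 172 per kilobase in NGPF2 cultures and 379 ± 139 in vehicle cultures. In NGPF2 cultures the means of Grm5 and Grm7 lay closer together than the SD of either, and in vehicle cultures they lay farther apart than either SD.

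Grm4, Grm2 and Grm3 formed a middle tier whose order changed between libraries. Grm4 stood at 127 ± 16.9 per kilobase in NGPF2 cultures and 127 ± 8.12 in vehicle cultures, and Grm2 at 101 ± 75.6 in NGPF2 cultures and 90.8 ± 88.9 in vehicle cultures. Grm3 stood at 76.1 ± 58.3 per kilobase in NGPF2 cultures and 125 ± 10.4 in vehicle cultures. The 3-library means of neighbours in this tier lay within the larger SD, but that SD mixes the library sets. In vehicle 2 and 3, Grm2 was at 46.4 and 32.9 per kilobase, against 125 and 114 for Grm3 and 119 and 127 for Grm4. In NGPF2 2 and 3, Grm4 was at 121 and 114, against 77.9 and 40.3 for Grm2 and 46.3 and 38.8 for Grm3. By all annotated exon bases Grm8 was the lowest of the 6 in each library, at 17.3 ± 6.83 per kilobase in NGPF2 cultures and 21.3 ± 4.21 in vehicle cultures. That rank depends on the length used. Per kilobase of the longest coding transcript, Grm8 stood above Grm2 in vehicle 3 (51.3 against 34.2) and close to it in vehicle 2 (46.1 against 48.2). Among all genes that passed the filter, Grm5 was above 78.5% to 88.2% of genes per kilobase and Grm8 above 19.2% to 24.5%, over the 6 libraries.

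The 6 transcripts summed to 1459, 1245 and 1179 normalized counts per kilobase in NGPF2 1, 2 and 3, and to 1422, 1238 and 1256 in vehicle 1, 2 and 3. The sum varied less than its make-up. Grm5 took 50.7%, 35.6% and 41.7% of it in NGPF2 1, 2 and 3, against 49.9%, 40.8% and 37.7% in vehicle 1, 2 and 3. Grm7 took 15.0%, 43.6% and 40.8% in NGPF2 1, 2 and 3, against 15.7%, 34.3% and 38.9% in vehicle 1, 2 and 3. The shares of Grm5 and Grm7 thus lay close together in replicates 2 and 3 and far apart in replicate 1 of both groups. By all annotated exon bases, Grm8 took 1.31% in NGPF2 cultures and 1.63% in vehicle cultures on average, and Grm3 9.56% in vehicle cultures. With the longest coding transcript as the length instead, a choice made after the data were seen, these shares became 2.59%, 3.23% and 7.39%.

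**Figure D1:**
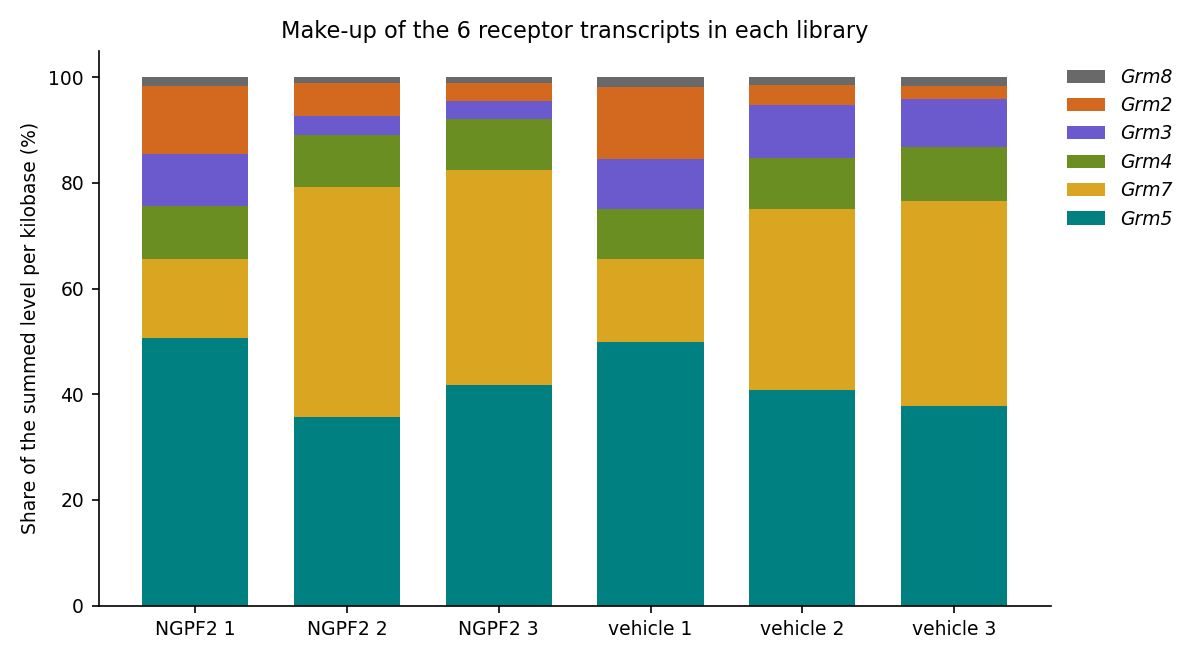
Share of each receptor gene in the summed level per kilobase of the 6 genes (vertical axis, percent), with 1 stacked bar for each library, NGPF2 on the left and vehicle on the right. Grm7 takes 34.3% to 43.6% in the 4 bars of replicates 2 and 3 and 15.0% and 15.7% in NGPF2 1 and vehicle 1.

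NGPF2 and vehicle cultures were compared to ask which receptor transcripts differed after 2 h. In replicates 2 and 3 Grm3 fell 2.80-fold with NGPF2, and none of the other receptor genes passed the test, where 21.1% of all genes tested were called. Pair 1 showed no such fall of Grm3 (log2 difference 0.086). Over the 3 pairs 0 of the 6 passed (limma with the replicate number as a block, Benjamini-Hochberg over 16653 genes, threshold 0.05), where 0% of all genes were called. At an unadjusted p under 0.05, Grm3 alone of the 6 passed, beside 13.0% of all genes tested. The number of genes at an unadjusted p under 0.05 was 2166 with limma and 1370 with voom on recovered counts, which called 0 genes.

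Grm3, a group II receptor of terminals and astrocytes, had 437, 141 and 118 normalized counts in NGPF2 1, 2 and 3, against 411, 380 and 348 in vehicle 1, 2 and 3. NGPF2 2 and 3 were the low libraries, the vehicle libraries lay close together, and the groups overlapped only through replicate 1. In pair 1 the log2 difference of Grm3 was 0.086, whereas pairs 2 and 3 gave -1.42 and -1.55. In pair 1 the counting interval (95%, exact, of the ratio of normalized counts, log2) ran from -0.071 to 0.24, and in pairs 2 and 3 from -1.74 to -1.13 and from -1.96 to -1.17. Counting intervals cover counting error only.

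Within replicates 2 and 3 (2 libraries against 2), the log2 difference of Grm3 was -1.49 (SE 0.16, 95% interval -1.90 to -1.08, adjusted p = 0.00611, limma), lower in 2 of 2 NGPF2 libraries. It was 1 of 6 receptor genes called, and 21.1% of all genes tested were called in that comparison. The calls comprised 1627 higher and 1884 lower genes, and with library total scaling 27% of 3641 calls were higher. This test takes replicates 2 and 3 as independent cultures. The call ended when either vehicle library was left out (adjusted p = 0.142 without vehicle 2 and 0.144 without vehicle 3, where no gene of the table passed) and when no filter on low values was used (adjusted p = 0.0545). With all 3 pairs the log2 difference of Grm3 was -0.96 (SE 0.35, adjusted p = 0.379, limma), lower in 2 of 3 pairs, and without replicate 1 it was -1.49 (adjusted p = 0.00331).

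The difference of the Grm3 effect between the library sets, replicates 2 and 3 minus replicate 1, was -1.57 (log2, SE 0.26, adjusted p = 0.0555, limma), and none of the 6 genes passed where 2.49% of all genes did. Before adjustment Grm3 was again the single receptor gene under 0.05, beside 20.3% of all genes. With the replicate block its adjusted p was 0.0476, and over the alternatives it ran from 0.0166 (voom on recovered counts) to 0.367, passing in 5 of 12. Whether the effect on Grm3 differs between the sets thus depends on the setting used. Replicate 1 holds 1 library per group, so its spread was taken to be that of replicates 2 and 3.

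**Figure D2:**
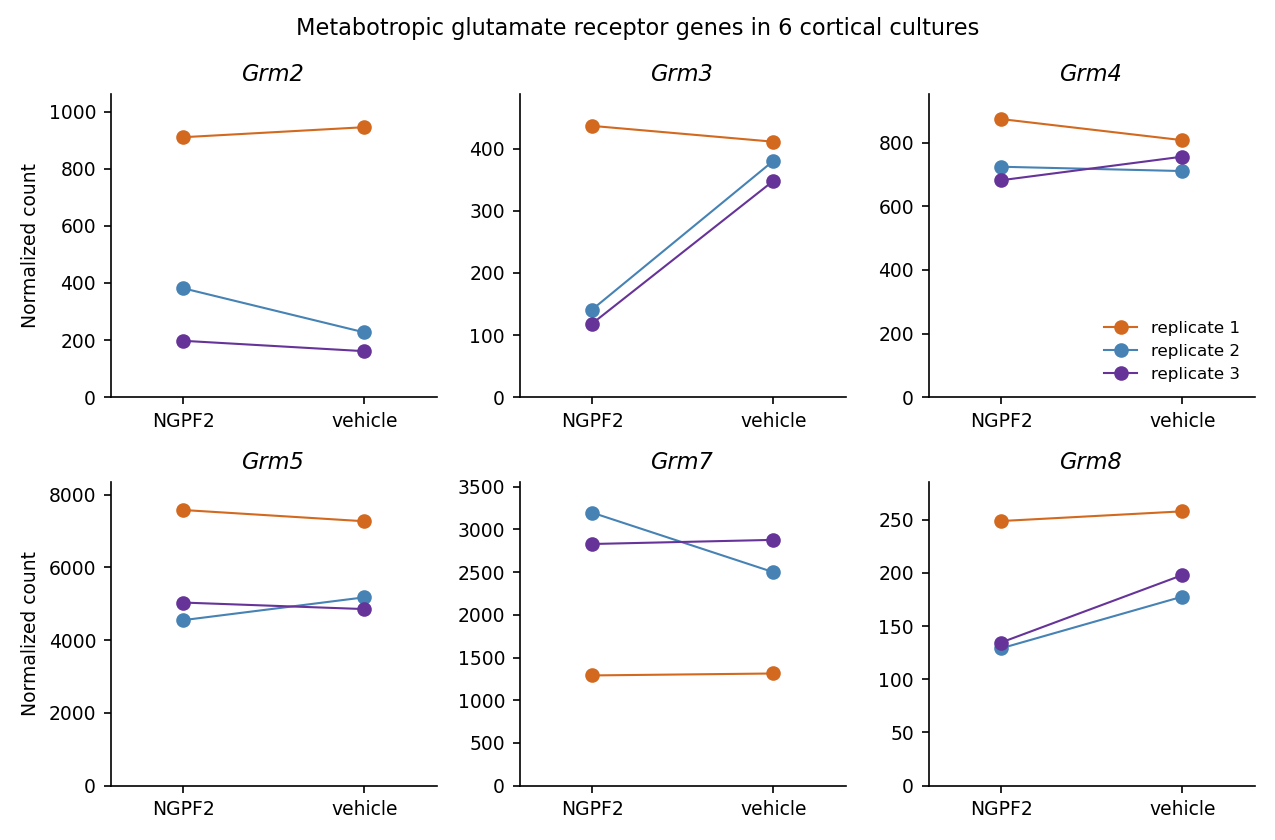
Normalized count of each receptor gene (vertical axis, linear from 0) in NGPF2 cultures on the left and vehicle cultures on the right of each panel. Each point is 1 library, lines join libraries of the same replicate number, and colours mark the replicate. For Grm3 the points of NGPF2 2 and 3, at 141 and 118, lie below all others, which run from 348 to 437.

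Markers of astrocytes fell with Grm3 in pairs 2 and 3, and so did the medians of microglia, oligodendrocyte precursor, and fibroblast and mural cell markers. Of the marker lists, the precursors lay nearest to Grm3 in pairs 2 and 3, with medians of -1.63 and -1.64, and 0.022 in pair 1. Of 14 listed astrocyte markers 13 were tested and 13 fell within replicates 2 and 3, with a median log2 difference of 0.023 in pair 1, -2.80 in pair 2 and -2.76 in pair 3. Their summed level was 37930, 25820 and 21898 normalized counts in NGPF2 1, 2 and 3, against 34102, 86186 and 79040 in vehicle 1, 2 and 3, and 1 of the 14 markers was at 0 in each of NGPF2 2 and 3. Over all genes tested the median difference within replicates 2 and 3 was -0.0027. Slc1a3, the astrocyte glutamate transporter GLAST, had 7603, 1598 and 1445 normalized counts in NGPF2 1, 2 and 3, against 7502, 11117 and 9824 in vehicle 1, 2 and 3. The fall of Grm3 within replicates 2 and 3 was thus smaller than that of the median astrocyte marker. In these bulk cultures, fewer cells of a type and less RNA per cell cannot be told apart, and the part of astrocyte content in the Grm3 difference was not tested. The vehicle cultures of the library sets were also compared, vehicle 2 and 3 minus vehicle 1. There the median log2 difference was 0.061 for oligodendrocyte precursor markers, -1.17 for microglia and -1.75 for fibroblasts and mural cells. Vehicle 2 and 3 held 10 of the 13 astrocyte markers at a higher level than vehicle 1 (median log2 difference 1.07), where 10.5% of all genes were called higher and 9.42% lower, while the Grm3 difference there was -0.18 (95% interval -0.65 to 0.30).

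Markers of other cell types gave mixed counts in replicates 2 and 3, where 9.77% of all genes rose and 11.3% fell. Of 9 microglia markers tested 7 fell, of 6 of oligodendrocyte precursors 4, of 8 of fibroblasts and mural cells 3 and of 6 of oligodendrocytes 2, while 0 of 3 endothelial markers passed at an adjusted p of 0.05 (limma). Of 10 markers of all neurons 6 rose and none fell, of 13 inhibitory markers 5 rose and 3 fell, and of 12 excitatory markers 4 rose and 4 fell. The median log2 difference within replicates 2 and 3 was -2.77 for microglia, -1.99 for fibroblasts and mural cells and -1.60 for oligodendrocyte precursors. It was -0.68 for endothelial cells, -0.27 for oligodendrocytes, 0.45 for all neurons, 0.41 for inhibitory and 0.28 for excitatory markers. With no filter on low values 1074 of all 31245 genes were called. In that setting 0 of the microglia markers, 1 of the markers of all neurons and 11 of the astrocyte markers were called. The fits without vehicle 2 or vehicle 3 leave 1 vehicle library and did not tell the marker lists apart. The microglia markers summed to 1574, 69.3 and 127 normalized counts in NGPF2 1, 2 and 3, against 1439, 643 and 564 in vehicle 1, 2 and 3. Their part in the receptor differences was not tested.

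Grm2, the other group II receptor and a brake on glutamate release at terminals, had 910, 381 and 197 normalized counts in NGPF2 1, 2 and 3, against 945, 227 and 161 in vehicle 1, 2 and 3. Replicate 1 of both groups was high, and within replicates 2 and 3 the groups overlapped. In pair 1 the log2 difference of Grm2 was -0.055, and pairs 2 and 3 gave 0.75 and 0.29. Counting error alone covered 0 in pair 3 (-0.082 to 0.67) and not in pair 2 (0.51 to 0.99). For replicates 2 and 3 the difference was 0.52 (SE 0.36, 95% interval -0.39 to 1.43, adjusted p = 0.350, limma), and over the 3 pairs 0.33 (SE 0.19, adjusted p = 0.453).

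The balance of the group II transcripts differed between cultures. The ratio of the Grm2 to the Grm3 level per kilobase was 1.30, 1.68 and 1.04 in NGPF2 1, 2 and 3, against 1.43, 0.371 and 0.288 in vehicle 1, 2 and 3. Vehicle 2 and 3 were the libraries in which the Grm3 level exceeded the Grm2 level.

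Grm8, a group III receptor, had 249, 129 and 135 normalized counts in NGPF2 1, 2 and 3, against 258, 178 and 198 in vehicle 1, 2 and 3. NGPF2 2 and 3 were the lowest libraries, and Grm8 and Grm3 were the 2 of 6 receptor genes whose groups did not overlap within replicates 2 and 3, as 64.9% of all genes did not. Its log2 difference was -0.052 in pair 1, and pairs 2 and 3 gave -0.46 and -0.55. In replicates 2 and 3 it was -0.51 (SE 0.16, 95% interval -0.92 to -0.095, adjusted p = 0.0855, limma) and missed the threshold, as it did over the 3 pairs (-0.35, SE 0.19, adjusted p = 0.425).

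Grm7, the group III receptor of presynaptic active zones, had 1290, 3196 and 2829 normalized counts in NGPF2 1, 2 and 3, against 1313, 2499 and 2877 in vehicle 1, 2 and 3. The replicate 1 libraries were low in both groups, and NGPF2 2 was the highest. Pair 2 gave a log2 difference of 0.35 for Grm7, and pairs 1 and 3 gave -0.025 and -0.024. Across genes, NGPF2 2 and 3 matched vehicle 2 and 3 no better by replicate number (r 0.299 and 0.333) than crossed (0.320 and 0.342). The split between pairs 2 and 3 thus rests on the replicate numbers alone. Within replicates 2 and 3 the Grm7 difference was 0.17 (95% interval -0.10 to 0.43, adjusted p = 0.318, limma). Grm4, also of group III, varied least of the 6 over the libraries, at 874, 724 and 682 normalized counts in NGPF2 1, 2 and 3, against 808, 711 and 756 in vehicle 1, 2 and 3. Its log2 difference was -0.061 within replicates 2 and 3 (95% interval -0.31 to 0.18, adjusted p = 0.688) and -0.0026 over the 3 pairs (95% interval -0.30 to 0.29), with a sign that turned with quantile scaling, with voom and without replicate 3.

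Grm5, the group I receptor that drives calcium release and a form of synaptic depression, had 7576, 4549 and 5032 normalized counts in NGPF2 1, 2 and 3, against 7267, 5176 and 4853 in vehicle 1, 2 and 3. Replicate 1 was high in both groups, and within replicates 2 and 3 the groups overlapped. Pair 2 gave a log2 difference of -0.19 for Grm5, and pairs 1 and 3 gave 0.060 and 0.052. The opposite signs of pairs 2 and 3 again rest on the replicate numbers alone. Its counts, from 2804 to 11844, were the deepest of the 6, and the counting intervals left out 0 on the higher side in pair 1 (0.023 to 0.097) and on the lower side in pair 2 (-0.25 to -0.13). Within replicates 2 and 3 the difference was -0.067 (95% interval -0.27 to 0.14, adjusted p = 0.595, limma) and over the 3 pairs -0.025 (95% interval -0.27 to 0.22, adjusted p = 0.913).

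**Figure D3:**
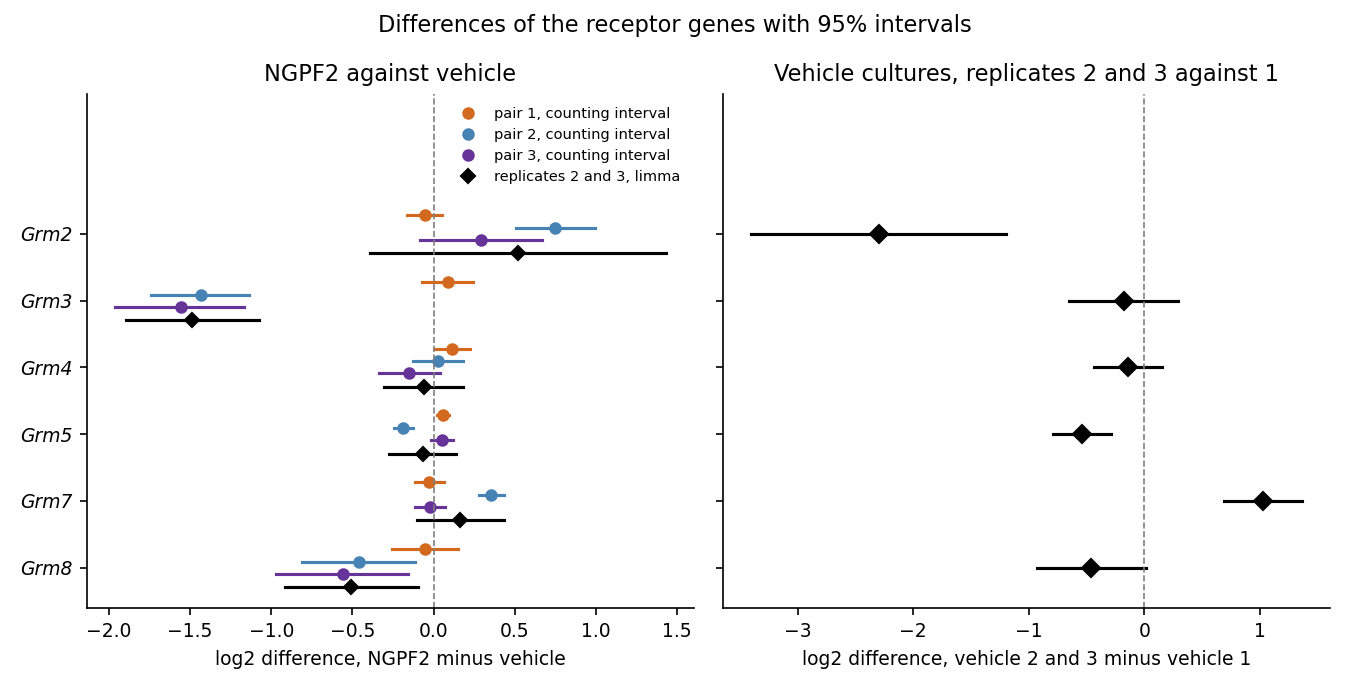
Log2 differences of the 6 receptor genes (horizontal axes), NGPF2 minus vehicle on the left and vehicle 2 and 3 minus vehicle 1 on the right. Circles are single pairs with counting intervals, diamonds are limma estimates with 95% intervals, and the dashed line is 0. On the left Grm3 in pairs 2 and 3 lies near -1.5 and each gene in pair 1 within 0.114 of 0, and on the right Grm2 stands at -2.30 and Grm7 at 1.03.

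In the vehicle cultures Grm2, Grm5 and Grm7 passed the test between the library sets, which rests on 1 library in replicate 1 and did not hold when vehicle 2 or vehicle 3 was left out. All 6 genes were on 1 side in replicates 2 and 3 of both groups relative to replicate 1 of both groups, with Grm7 higher and the other 5 lower, and 51.8% of all genes showed such separation. Between vehicle 2 and 3 and vehicle 1, the test called 3 of the 6, where 19.9% of all genes tested were called. Grm2 was at 227 and 161 normalized counts in vehicle 2 and 3, against 945 in vehicle 1, a log2 difference of -2.30 (SE 0.43, adjusted p = 0.0241, limma). Grm7 was at 2499 and 2877 in vehicle 2 and 3, against 1313 in vehicle 1, a difference of 1.03 (SE 0.13, adjusted p = 0.00951).

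Grm5 was at 5176 and 4853 in vehicle 2 and 3, against 7267 in vehicle 1, a difference of -0.54 (SE 0.099, adjusted p = 0.0229). The differences of Grm8, Grm3 and Grm4 were -0.46 (95% interval -0.93 to 0.016), -0.18 and -0.14 (95% interval -0.44 to 0.16) and did not pass. As vehicle 1 is 1 library, its spread was taken from replicates 2 and 3, and the 3 calls ended when vehicle 2 or vehicle 3 was left out, where 1 and 0 genes of the table passed. They also ended with no filter on low values and with no mean-variance trend. Culture, library preparation and sequencing of the sets cannot be told apart.

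Neuronal subtype markers were set beside the receptors in the same comparison, where 10.5% of all genes were called higher and 9.42% lower. Of 13 inhibitory neuron markers 12 were lower and 1 higher in vehicle 2 and 3 than in vehicle 1, with a median log2 difference of -1.70, and of 12 excitatory markers 3 were higher and 3 lower, with a median of -0.11. These calls, like those of the astrocyte markers between the sets, are made against the single library of vehicle 1, and without vehicle 2 or vehicle 3 only 1 and 0 genes of the table were called. Summed levels were 54338 and 57926 normalized counts in vehicle 2 and 3, against 151174 in vehicle 1, for the inhibitory markers. For the excitatory markers they were 87200 and 89320 in vehicle 2 and 3, against 37664 in vehicle 1. Of these, Camk2a, a kinase of excitatory neurons, made up 53273 and 47771 in vehicle 2 and 3, against 12518 in vehicle 1. Slc17a7, another marker of that list, made up 19837 and 28191 in vehicle 2 and 3, against 5583 in vehicle 1. The part of such subtype content in the Grm2, Grm5 and Grm7 differences was not tested. The ratio of the Grm5 to the Grm7 level per kilobase was 0.818 and 1.02 in NGPF2 2 and 3 and 1.19 and 0.969 in vehicle 2 and 3, against 3.37 in NGPF2 1 and 3.18 in vehicle 1.

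Across the 6 libraries the log2 levels of Grm5 and Grm7 ran opposite to each other (Pearson r = -0.997), and those of Grm3 and Grm8 together (r = 0.911). These values describe 6 libraries that share 2 library sets, and they carry no test. Among 11195 other named genes that averaged 100 normalized counts or more, the 3 with the highest r were Gkap1, Gabra5 and Lama1 for Grm3 (0.997 to 0.999). They were Vars2, Mrps5 and Pcif1 for Grm2, Map4, Npy and Ptk7 for Grm8, and Umps, Mctp1 and Rdx for Grm5. For Grm7 they were Mpp3, Kcnj12 and Pacsin2, and for Grm4 P3h3, Rsad1 and Maml1 (0.983 to 0.993). Such likeness is common in 6 libraries, since from 4.79% (Grm4) to 13.1% (Grm7) of the genes compared had an r above 0.9. Lama1, a laminin chain, had 209, 28.7 and 16.2 normalized counts in NGPF2 1, 2 and 3, against 204, 163 and 138 in vehicle 1, 2 and 3, which is the pattern of Grm3 with a larger drop.

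Genes of receptor signalling, taken from lists chosen by function, are given beside the receptors by their counts within replicates 2 and 3, to be read against the same 9.77% and 11.3% of all genes. These counts depend on the settings, as do those over all genes. The 6 lists had 3 to 16 genes called, beside 3511 of all 16653 genes tested. With no filter on low values they had 0 to 6, beside 1074 of 31245 genes. With no mean-variance trend they had 1 to 7, beside 1535 of 16653 genes. The fits without vehicle 2 or vehicle 3 leave 1 vehicle library and could not tell the lists from other genes. Of 18 tested genes of group I coupling 6 rose and 4 fell, with medians of 0.043, 0.36 and 0.044 in pairs 1 to 3. Itpr2, the main inositol trisphosphate receptor of astrocytes, fell 7.03-fold (adjusted p = 0.00175, limma), to 106.4 and 86.1 normalized counts in NGPF2 2 and 3, against 640.4 and 719.2 in vehicle 2 and 3. The channel Trpc5 fell 2.22-fold (adjusted p = 0.00807). In pair 1 the log2 differences were -0.075 for Itpr2 and 0.24 for Trpc5.

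Of 28 genes of group II and III coupling 7 rose and 3 fell, with medians of 0.017, 0.22 and 0.12 in pairs 1 to 3. Gnaz, an inhibitory G protein alpha subunit of neurons, rose 1.64-fold, while the alpha subunit Gnai2 fell 2.27-fold, the beta subunit Gnb4 1.72-fold and Rgs4, which speeds the turning off of Gi and Gq signals, 1.57-fold. Of 30 receptor binding and scaffold proteins 9 rose and 4 fell, with medians of 0.017, 0.24 and 0.20. Ncdn, or norbin, a binding partner of Grm5, rose 1.53-fold and the scaffold Shank3 1.56-fold, whereas Slc9a3r1, the scaffold NHERF1, fell 8.10-fold and the prion protein gene Prnp 1.43-fold.

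Of 29 genes of receptor-driven depression and protein synthesis 10 rose and 6 fell, with medians of 0.015, 0.20 and 0.11 in pairs 1 to 3. Mgll, which breaks down the endocannabinoid 2-AG, rose 1.94-fold, the kinase gene Mapk3 1.65-fold and Arc, which drives AMPA receptor internalisation, 1.45-fold, while the cannabinoid receptor Cnr1 fell 1.66-fold. Of 18 genes of glutamate release, uptake and recycling 3 rose and 9 fell, with medians of -0.025, -0.28 and -0.43. The 4 genes of smallest p there all fell, and the 3 that rose are not named. They were Slc1a3 (6.87-fold), the glutamine synthetase Glul (4.44-fold), the glutamine transporter Slc38a3 (6.42-fold) and the glutamate dehydrogenase Glud1 (1.90-fold). The median astrocyte marker had a log2 difference of -2.78 in the same comparison, and Glud1 one of -0.92. Slc1a3 is also in the astrocyte list. Of 10 tested other class C receptors 2 rose and 1 fell, the GABA-B subunit Gabbr1 rising 1.27-fold and the orphan receptors Gprc5c rising 4.36-fold, at 88.5 and 68.2 normalized counts in NGPF2 2 and 3 against 18.8 and 15.5 in vehicle 2 and 3, and Gprc5b falling 1.41-fold. None of the genes of these 6 lists passed over the 3 pairs (limma), where 0 of all 16653 genes tested passed.

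**Figure D4:**
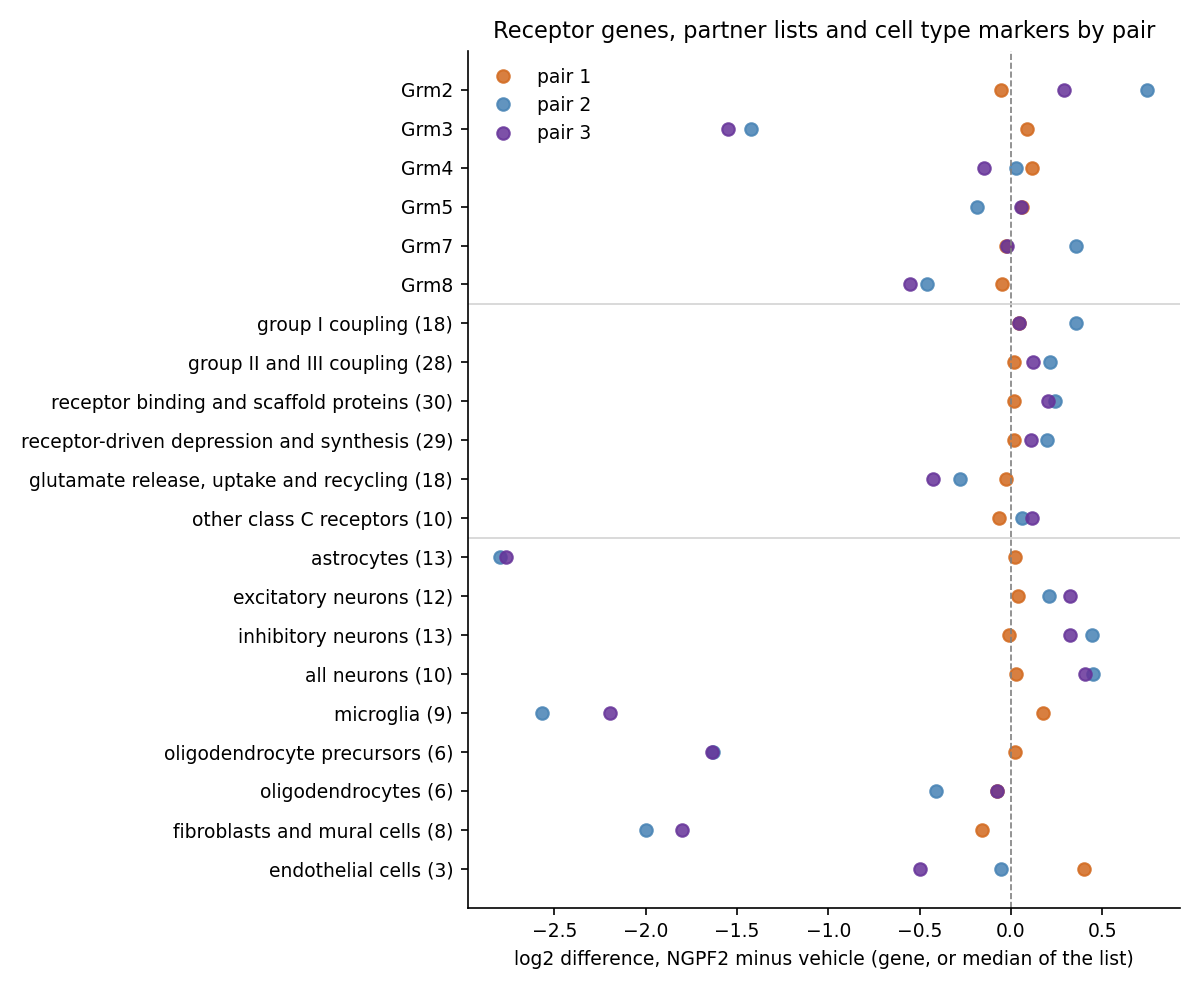
Log2 difference, NGPF2 minus vehicle (horizontal axis), in each of the 3 pairs for the receptor genes (top), and the median over the tested genes of each signalling list (middle) and each cell type marker list (bottom), with the number of genes tested in parentheses. In pairs 2 and 3 Grm3 lies at -1.42 and -1.55, the astrocyte markers at -2.80 and -2.76 and the oligodendrocyte precursor markers at -1.63 and -1.64. In pair 1 they lie at 0.086, 0.023 and 0.022, in the same order.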

How the data were processed

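Per the labels' protocols, TRIzol RNA of 6 cultures was selected on oligo(dT) beads and made into adapter-ligated, amplified fragments. Tools named in the submitters' processing notes, without saying what each was used for, are STAR 2.5, DESeq 1.22.1, Cuffnorm and FastQC, and the build is mm10. Which annotation, counter and strand setting were used is not given in the sources used here. Although the table is named as FPKM, the deposited values are on a log2 scale, of normalized counts with 1 added: 2 raised to the value, minus 1, was a whole multiple of 1 step for 100% of values in each library (tolerance 0.01 of a count), and the inverse of the step, from 0.557 to 1.56, was taken as the size factor. Whole counts were recovered from it. Counts of the receptor genes ran from 66 to 11844, so that counting error was between 12.3% and 0.919% of a value.

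Symbols were found for 31185 of 31245 identifiers. The columns of replicates 2 and 3 carry the library names of the sample titles, and the remaining column of each group, which bears the digit 3, was taken as replicate 1 by elimination. The series states 3 experiments, but no label of a culture names its experiment, so that p-values measure the spread between these samples, which may be technical in part. The log2 values were tested as deposited (pseudocount 1) with limma 3.58.1 in R 4.3.3, using a mean-variance trend, and 2-sided p-values were adjusted by Benjamini-Hochberg over the 16653 genes that averaged 10 normalized counts or more. Over the 3 pairs the replicate number was a block, after the series' statement of 3 pairs. As a check, r across genes of the deviations from the group mean was 0.594 for NGPF2 1 with vehicle 1, 0.299 for NGPF2 2 with vehicle 2 and 0.333 for NGPF2 3 with vehicle 3, while NGPF2 2 with vehicle 3 gave 0.320 and NGPF2 3 with vehicle 2 gave 0.342. The fit within replicates 2 and 3 had no block, and the remaining comparisons used 4 cells of group by library set.

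The 6 genes and the lists were chosen with earlier results of these data known. Named genes are the 6 receptors, up to 4 genes of smallest p per signalling list, some defining markers, and the 3 genes most correlated with each receptor. Some genes that this rule names are not reported here. Levels per kilobase used the union of exon bases in GENCODE M21. Promoter sequences are from RefSeq, and 4 of the 6 genes matched. Figures used matplotlib 3.10.9 in Python 3.11.15. Alternatives covered the filter, pseudocount, scaling, trend, block, voom on recovered counts and leaving out libraries.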

Additional observations from a re-analysis of the deposited data

How the results depend on the processing

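Over the 3 pairs 1 gene of the table passed with a pseudocount of 5 and 1 with no replicate block, and leaving out a replicate gave 0 to 3275 genes, the highest without replicate 1. Within replicates 2 and 3 the count of 3511 became 1074 with no filter and 1535 with no mean-variance trend, 3275 with the replicate block, and 0 to 3206 when 1 library was left out. The count of genes whose effect differed between the sets, 415, became 733 with the filter raised to a mean of 50, 4684 with no filter, 22 with no trend, 1472 with voom, 526 with the replicate block and 0 to 412 without 1 library. The count between vehicle 2 and 3 and vehicle 1, 3322, became 1232 with no trend, 5036 with voom and 0 to 3898 without 1 library. Where vehicle 2 or 3 was left out, the lone vehicle library was assumed to vary like the others. The share of higher calls for the difference of effects was 28.9%, and 20.3% with library total scaling and 41.0% with voom. That scaling moved the median of all genes by -0.13 within replicates 2 and 3.

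Signs turned only for values of receptor genes that did not pass. For the 3 pairs the log2 difference of Grm4 was 0.024 with quantile scaling and 0.035 with voom. When 1 replicate was left out it ran from -0.061 to 0.071 for Grm4, from -0.067 to 0.056 for Grm5 and from -0.025 to 0.17 for Grm7. Among replicates 2 and 3 that of Grm5 ran from -0.14 to 0.0059 when 1 library was left out. Of the receptor genes' values under the alternatives, 249 kept direction and side of the threshold, 15 lost a call, 6 gained one and 6 turned. Apart from Grm3 in the difference of effects, the replicate block changed no call of a receptor gene. Grm3 within replicates 2 and 3 ranged from -1.61 to -1.22 and passed in 9 of 12 alternatives. Depth limits Grm3 and Grm8 most, at 66 and 75 counts in NGPF2 3. Of the counts over the signalling and marker lists within replicates 2 and 3, 129 stayed within 1.5 times and 51 did not, nearly all of them without vehicle 2 or vehicle 3, with no filter or with no trend. Where not stated, the cause of a change was not tested.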
